A study of Homo sapiens with 12 samples.

Results

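SLC38A12 was the 1 gene with a named probe set here out of 8 solute carrier (SLC) families that carry amino acids and peptides, SLC1, SLC3, SLC6, SLC7, SLC15, SLC36, SLC38 and SLC43. Members were chosen by symbol: a gene had to have a named probe set and a symbol from one of these families, with pseudogenes and antisense RNAs left out. Of 14884 genes with a named probe set, 1 met the rule, and 1 antisense RNA was left out. The RefSeq gene table lists 65 protein-coding genes of these families, so the values below describe a single carrier gene and not the families. The other 64 have no name in the probe annotation used, which leaves 37519 of 53617 probe sets unnamed, and are not analysed here. This does not say that the array lacks them. RNA was measured on 12 Affymetrix arrays from A431 and HSC-1, both established human cell lines from squamous cell carcinoma of the skin. Each line received the vehicle DMSO or everolimus at 100 nM, and all cells were collected at 72 h, with 3 arrays in each of 4 groups (A431 DMSO, A431 everolimus, HSC-1 DMSO and HSC-1 everolimus). Everolimus is a rapamycin analogue that inhibits mTOR complex 1. Nothing in the labels ties the 3 arrays of a group to separate cultures, and p-values therefore reflect the spread among these arrays alone, which may be technical.

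Amino acid carriers move amino acids across the plasma membrane and the membranes of organelles such as the lysosome. mTOR complex 1 is a kinase complex that senses amino acids at the lysosome, and several carriers feed it or act as its sensors there. The SLC38 family holds sodium-coupled carriers of neutral amino acids such as glutamine. SLC38A12, formerly TMEM104, is a membrane protein grouped with that family by its sequence, and it is less studied than its relatives. Arrays measure its RNA, and neither its protein nor transport was measured.

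The stretch just upstream of the SLC38A12 start is shown because it was searched for the response elements through which amino acid shortage, oxidative stress and lysosomal regulators act. It is RefSeq sequence of build GRCh38.p14, plus strand, chr17:74776249-74776498, with CG pairs in capitals.

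SLC38A12: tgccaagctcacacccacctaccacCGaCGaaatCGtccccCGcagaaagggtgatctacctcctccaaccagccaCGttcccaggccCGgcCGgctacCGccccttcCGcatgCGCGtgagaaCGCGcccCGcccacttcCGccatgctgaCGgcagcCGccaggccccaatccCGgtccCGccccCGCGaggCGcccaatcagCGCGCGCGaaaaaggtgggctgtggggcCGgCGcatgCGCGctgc

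These 250 bases were 70.8% G or C and held 30 CG pairs, and 18.9% of 35116 promoters in the RefSeq table had at least that share of G and C over the same length. On either strand the SLC38A12 stretch held 0 matches to the amino acid response element TGATGNAA, 0 to the antioxidant response element TGACNNNGC and 0 to the lysosomal CLEAR element TCACGTGA. The shares of all promoters with a match over that length were 3.14%, 10.9% and 0.854%. The absence of a match says only that these letters are not in this window.

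The labelled cell type was checked against keratinocyte markers. All 8 of the 17 fixed markers with a named probe set (KRT5, KRT14, KRT16, SFN, DSG3, DSC3, DSP and JUP) lay above the array median on all 12 arrays. Their summed log2 level was 75.7 to 76.4 in A431 DMSO, 74.3 to 74.5 in A431 everolimus, 76.1 to 76.6 in HSC-1 DMSO and 76.3 to 76.8 in HSC-1 everolimus. At a limma adjusted p under 0.05, 5 of the 8 fell with everolimus and 0 rose in A431, and 2 fell and 2 rose in HSC-1. Of all tested genes, 4.33% fell and 2.39% rose in A431, and 11.3% fell and 7.34% rose in HSC-1. Of the other markers, THY1 (fibroblast), MITF and SOX10 (melanocyte) and CD68 (leukocyte) lay above the array median on all 12 arrays. DCN, MLANA, TYR and LYZ and all 3 named endothelial markers lay below it on all 12. LUM (fibroblast) lay above it on 6 arrays, CD14 (leukocyte) on 5 and PMEL (melanocyte) on 1. The fibroblast markers above the median on all arrays of a group were 2 of 3 named in both A431 groups and 1 of 3 in both HSC-1 groups, the melanocyte markers 2 of 5 in each group, and the leukocyte markers 2 of 3 in A431 DMSO and 1 of 3 in the others. The summed fibroblast level was 11.7 to 12.4 in A431 and 9.40 to 10.1 in HSC-1, and the summed leukocyte level 17.9 to 18.5 in A431, 15.1 to 15.3 in HSC-1 DMSO and 14.2 to 14.8 in HSC-1 everolimus. The summed melanocyte level was 20.9 to 22.4 over all groups. The part of these markers in the SLC38A12 values was not tested. Within a group, arrays had correlations of 0.989 to 0.992 across probe sets. Arrays of different groups had 0.955 to 0.991, so the ranges overlap.

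SLC38A12 (probe set 16837646, transcript accession NM_017728) lay 2.94 to 3.34 log2 units above the array median on all 12 arrays. The median of the array, on which the choice of genes rests, is not a measured background. In A431 DMSO its log2 level was 7.62, 7.68 and 7.58 on replicates 1, 2 and 3. In A431 everolimus it was 7.54, 7.57 and 7.55. All 3 everolimus arrays lay below all 3 DMSO arrays, by a small margin. In HSC-1 DMSO its log2 level was 7.54, 7.55 and 7.56. In HSC-1 everolimus it was 7.44, 7.39 and 7.33, the 3 lowest of the 12 arrays. The groups of each line did not overlap. Fewer cells expressing the gene and less of its RNA per cell cannot be told apart in such bulk samples.

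**Figure D1:**
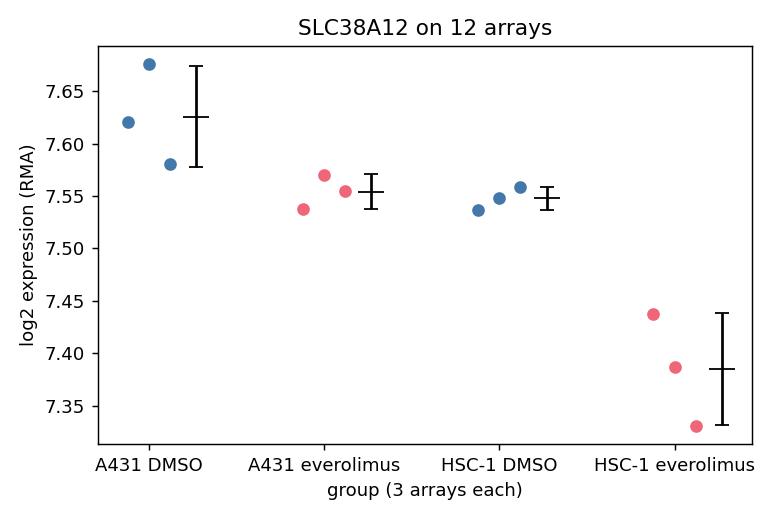
SLC38A12 on each array. The vertical axis is log2 expression after RMA and does not start at 0; points are arrays (blue DMSO, red everolimus), and the black marks are the group mean with its SD over 3 arrays. The HSC-1 everolimus arrays sit at 7.33 to 7.44, below the other 9 arrays at 7.54 to 7.68.

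SLC38A12 RNA fell with everolimus in HSC-1. Its mean log2 level was 7.55 ± 0.011 in DMSO and 7.38 ± 0.053 in everolimus (SD, n = 3). The log2 difference was -0.16 ± 0.051 (SE), a change of -10.7% with a 95% interval from -17.1% to -3.77% (limma adjusted p = 0.0326). In that comparison 18.6% of the 10613 genes tested passed the same threshold, an adjusted p of 0.05, and 11.3% passed it with a lower level. The 3 everolimus arrays lay wholly below the DMSO arrays for 19.6% of genes. A larger change in either direction was seen for 35.2% of genes. The exact permutation test on this value alone gave p = 0.1 (two-sided), the smallest that 3 arrays against 3 allow. The call was lost in 7 of 22 alternatives, with limma adjusted p from 0.0159 to 0.0925 over all of them. These were the fit without the intensity trend (0.0566), the fit on the 6 arrays of the comparison (0.0698), and the fits without HSC-1 DMSO replicate 1 (0.073), 2 (0.0834) or 3 (0.0885) or HSC-1 everolimus replicate 2 (0.0785) or 3 (0.0925). Among fits that left out an array of this comparison, only that without HSC-1 everolimus replicate 1 kept the call (limma adjusted p = 0.0269). The 22 also hold fits without an A431 array and the averaging of probe sets, where this difference cannot change. Nor can it with a replicate block, another level filter, no trend, a robust prior or the 6 arrays alone.

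In A431 the SLC38A12 difference was smaller and did not pass. The mean log2 level was 7.63 ± 0.048 in DMSO and 7.55 ± 0.017 in everolimus (SD, n = 3). The log2 difference was -0.07 ± 0.051 (SE), a change of -4.85% with a 95% interval from -11.7% to 2.52% (limma adjusted p = 0.499). The exact permutation test gave p = 0.1, again the smallest possible (two-sided). The groups did not overlap, as for 13.5% of genes in this direction. In A431, 6.73% of genes passed the threshold. The interval still holds a fall of the size seen in HSC-1.

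The effect of everolimus on SLC38A12 was not shown to differ between the lines. Subtracting the A431 effect from the HSC-1 effect gave -0.09 ± 0.072 (SE) on the log2 scale, with a 95% interval from -0.24 to 0.06 (limma adjusted p = 0.504). In that test 10.5% of genes passed.

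**Figure D2:**
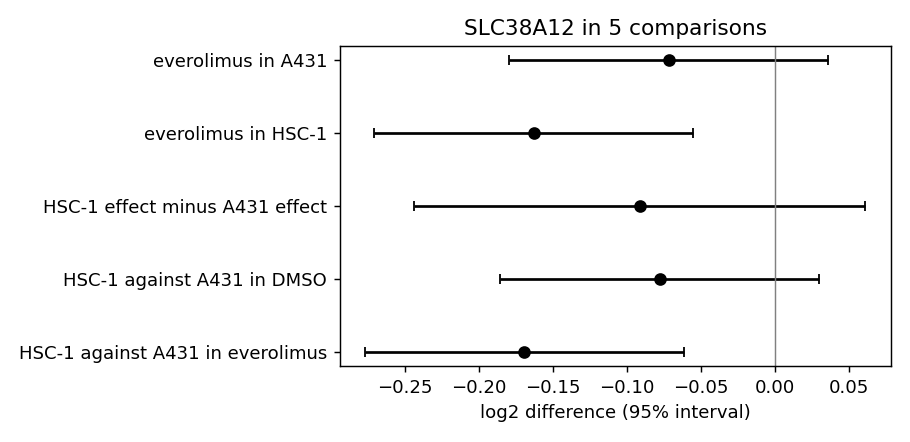
SLC38A12 in the 5 comparisons. Points are log2 differences, in the order in which each comparison is named, with 95% intervals from the limma fit. The intervals of everolimus in HSC-1 and of HSC-1 against A431 in everolimus lie wholly below 0, and the other 3 span it.

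Between the lines, SLC38A12 was lower in HSC-1 where both had received everolimus. The log2 difference there was -0.17 ± 0.051 (SE), a change of -11.1% with a 95% interval from -17.5% to -4.19% (limma adjusted p = 0.00776, and 0.0057 to 0.0303 over 22 alternatives, which all kept the call). In this comparison 59.3% of genes passed and 31.0% were called lower in HSC-1, so a difference between these lines is the usual case. In DMSO the log2 difference of SLC38A12 between the lines was -0.08 ± 0.051 (SE), a change of -5.27% with a 95% interval from -12.1% to 2.07% (limma adjusted p = 0.207). There 59.4% of genes passed. This difference ran from -0.10 to -0.04 over the alternatives, the latter with quantile normalization applied again. The lines did not overlap in DMSO or in everolimus, and all HSC-1 arrays were below all A431 arrays of the same treatment, as for 32.9% of genes in DMSO and 33.1% in everolimus. The smallest exact permutation p, 0.1, was reached in both (two-sided). A larger difference between the lines was seen for 83.5% of genes in DMSO and 66.8% in everolimus. In order of mean level the groups ran from A431 DMSO through A431 everolimus and HSC-1 DMSO to HSC-1 everolimus. The middle pair had means of 7.55 each and overlapped, and the HSC-1 DMSO arrays lay within 7.54 to 7.56. HSC-1 everolimus stood below its neighbour in that order, HSC-1 DMSO, by a difference past the threshold. The step from A431 DMSO to A431 everolimus did not pass, and the middle pair was not tested.

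**Figure D3:**
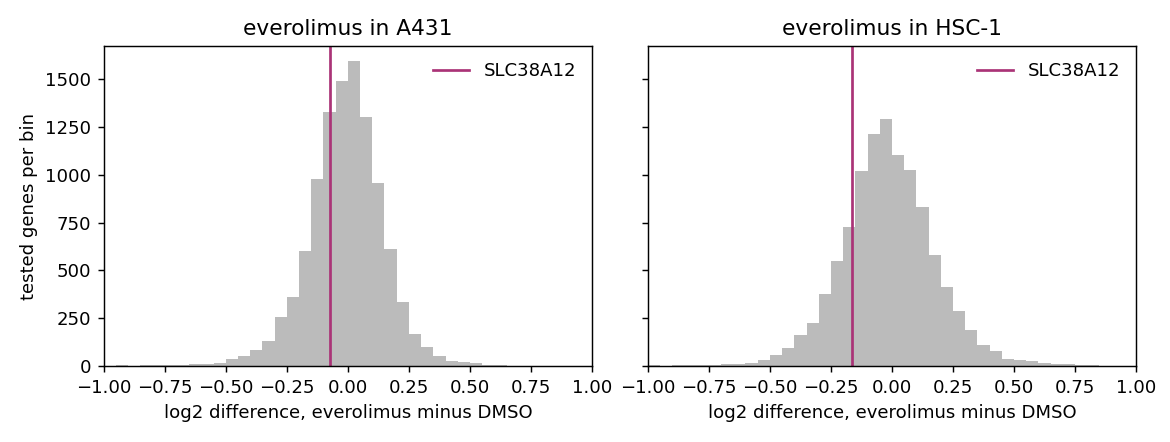
SLC38A12 among all tested genes. Grey bars count the 10613 tested genes by log2 difference, everolimus minus DMSO, in A431 (left) and HSC-1 (right), and the line marks SLC38A12 at -0.07 and -0.16. The axis stops at 1 in each direction. In A431 31.3% of genes had a more negative difference than SLC38A12, and in HSC-1 19.8%.

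Other carriers were set beside SLC38A12, in numbers too small to compare with the shares of all genes. Among 19 tested genes of other SLC families, 2 fell and 0 rose with everolimus in A431 (2 and 1 at an unadjusted limma p under 0.05), and 2 rose and 0 fell in HSC-1 (5 and 1 unadjusted), with medians of 0.0036 and 0.023 on the log2 scale against -0.0038 and -0.02 over all tested genes. Genes called higher made up 2.39% of all tested in A431 and 7.34% in HSC-1, and those called lower 4.33% and 11.3%. SLC49A4, formerly DIRC2, a carrier of the lysosomal membrane, had a mean log2 level of 9.61 ± 0.037 in A431 DMSO and 9.45 ± 0.048 in A431 everolimus, and 9.55 ± 0.086 and 9.82 ± 0.0031 in HSC-1 (SD, n = 3). It fell by 0.16 ± 0.044 (SE) in A431 and rose by 0.26 ± 0.044 in HSC-1 (limma adjusted p = 0.033 and 0.000298). The A431 call was lost in 6 of 22 alternatives, among them the fits without A431 DMSO replicate 1 or 2 and without A431 everolimus replicate 1 or 2, with adjusted p up to 0.165. SLC71A1 fell by 0.15 ± 0.042 in A431, lost in 9 of 22 alternatives (adjusted p up to 0.187), and SLC60A2 rose by 0.21 ± 0.07 in HSC-1, lost in 14 of 22 (up to 0.158). Of 26 fixed amino acid carriers outside the 8 families, only 6 had a named probe set, and all 6 were tested. Among the 6, 3 (SLC25A15, SLC25A2 and SLC66A1) are also among the 19. Of the 6, SFXN2, a mitochondrial sideroflexin, fell in HSC-1 by 0.28 ± 0.074 (limma adjusted p = 0.0125, and 0.0597 without HSC-1 DMSO replicate 2). None of the 6 passed in A431 with limma (0 at an unadjusted p under 0.05), where their median log2 difference was -0.04, against -0.13 in HSC-1.

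Genes around amino acid carriage were counted on the same scale. The fixed lists held 37 sensing genes, 30 ATF4 response genes, 19 partners and regulators and 23 enzymes, of which only those tested are counted. The rest had no named probe set or lay below the level filter. Of all tested genes, 4.33% fell and 2.39% rose in A431, and 11.3% fell and 7.34% rose in HSC-1. Their median log2 differences were -0.0038 and -0.02. The lists are too small to compare closely with these shares. Of 25 tested genes of amino acid sensing upstream of mTOR complex 1, 1 rose and 0 fell in A431 (1 and 1 unadjusted), and 3 rose and 1 fell in HSC-1 (5 and 3 unadjusted), with medians of -0.01 and 0.06. The list also holds MTOR itself, the kinase of the complex, which was the gene that rose in A431. It holds TSC2 as well, which rose in HSC-1 beside RRAGB and FNIP1. FNIP1, a partner of folliculin in activating the Rag GTPases, rose in HSC-1 by 0.41 ± 0.065 (limma adjusted p = 0.000211). Of 20 tested genes of the ATF4 amino acid response without carriers, 4 fell and 0 rose in A431 (6 and 0 unadjusted), and 7 fell and 0 rose in HSC-1 (9 and 0 unadjusted), with medians of -0.10 and -0.12. Those that fell in A431 were DDIT4, VEGFA, GDF15 and CTH, while ATF4, ASNS, PSAT1 and PHGDH did not pass there. Those that fell in HSC-1 were DDIT4, TRIB3, ASNS, PSAT1, PSPH, SHMT2 and CTH. CTH, which makes cysteine from cystathionine, fell in both lines, by 0.38 ± 0.096 in A431 and 0.43 ± 0.096 in HSC-1, and its A431 call did not hold when A431 everolimus replicate 1 or 2 or A431 DMSO replicate 2 was left out (adjusted p up to 0.114). Of 11 tested partners and regulators of carriers, 2 rose and 1 fell in A431 (2 and 2 unadjusted), and 1 rose and 2 fell in HSC-1 (2 and 2 unadjusted), with medians of -0.09 and 0.05. TXNIP, an arrestin-like protein that lowers glucose uptake, rose in HSC-1 by 0.73 ± 0.065 (limma adjusted p = 3.57e-07). ARRDC3, another arrestin-like protein, rose by 0.20 ± 0.057 in A431 and fell by 0.18 ± 0.057 in HSC-1, calls lost in 10 and 6 of 22 alternatives (adjusted p up to 0.13 and 0.156). Of 10 tested enzymes of glutamine, glutamate and glutathione, which again include CTH, 1 rose and 3 fell in A431 (1 and 4 unadjusted), and 0 rose and 2 fell in HSC-1 (1 and 3 at an unadjusted limma p under 0.05), with medians of -0.07 and -0.04. Single arrays decided some of these small counts. The 3 enzyme falls in A431 went to 0 when replicate 2 of either A431 group was left out, and the fall of 1 regulator there went to 0 when replicate 1 or 2 of either group was. In HSC-1 the 2 falls of regulators went to 0 when HSC-1 everolimus replicate 3 or HSC-1 DMSO replicate 1 or 2 was left out, and the fall of 1 sensing gene when HSC-1 everolimus replicate 2 or 3 or HSC-1 DMSO replicate 1 or 3 was. SESN2 is counted in both the sensing and the ATF4 list.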

How the data were processed

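The values are log2 expression per probe set as the authors deposited them. The submitters' processing notes name RMA and Affymetrix Expression Console. No version or genome build is stated in the sources used here. RMA evens out the arrays and would hide a change in the total RNA of a cell. The deposited values still differed slightly in distribution, with array medians of 4.34 to 4.39 over 53617 probe sets. Quantile normalization applied again moved the line difference of SLC38A12 from -0.08 to -0.04 in DMSO and from -0.17 to -0.13 in everolimus. The everolimus differences moved little, from -0.072 to -0.073 in A431 and from -0.163 to -0.165 in HSC-1. No detection flags were used, and precision is limited by the number of arrays.

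Of the probe sets, 16098 carried 1 gene symbol, 0 carried several and 37519 are unnamed here. All 16098 matched the GRCh38.p14 gene table by Entrez identifier. The probe set with the highest mean was used per gene (SLC38A12 has 1), and 10613 of 14884 genes above the array median on at least 3 of 12 arrays were tested. Groups came from the sample titles. Group means were fitted over all 12 arrays with limma 3.58.1 in R 4.3.3 (eBayes with an intensity trend, Benjamini-Hochberg adjustment over all genes tested), and the procedure was tested on simulated data. Errors of differences are moderated SEs. The naming rule took each member with its values on every array, and the rest of its panel is not analysed here. The 8 genes named with values from the pathway lists in the Results were chosen after their values were seen. The same holds for the list genes added in the closing observations. The members and lists were chosen with earlier results of these data known.

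Alternatives were a replicate block, no filter or one at the 60th percentile, no trend, a robust prior, array weights, quantile normalization again, median centring, probe sets averaged per gene, 6 arrays alone (not for the difference between lines) and leaving out each array.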

Additional observations from a re-analysis of the deposited data

Results flagged for a closer look

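SLC38A12 itself met no criterion for a closer look, since groups of 3 arrays were not examined for outlying samples and the test of the difference between the lines did not pass for it. In the surrounding lists the everolimus effect differed between the lines by that test, with the log2 effect in A431 subtracted from that in HSC-1, in 1 of 25 amino acid sensing genes, 4 of 20 ATF4 response genes, 3 of 11 partners and regulators, 1 of 10 glutamine, glutamate and glutathione enzymes, 0 of 6 other amino acid carriers (1 at an unadjusted limma p under 0.05) and 2 of 19 other SLC genes, against 10.5% of all tested genes. Of the 8 keratinocyte markers, 4 passed that test, DSG3 at 0.57, DSC3 at 0.36, DSP at 0.31 and JUP at 0.27. Among the surrounding lists, PSAT1 differed by -0.83, ASNS by -0.48, ODC1 by -0.47 and SHMT2 by -0.46. In the other direction, LAPTM4B differed by 0.25 and the ATF4 response gene DDIT4 by 0.19 (limma adjusted p = 0.0294 and 0.0495). Of the 8 list genes named with values in the Results, 5 passed. Those 8 were chosen after their values were seen, so this count says nothing about the lists. TXNIP differed by 0.85 ± 0.092 (SE), SLC49A4 by 0.42 ± 0.062, FNIP1 by 0.39 ± 0.092 and ARRDC3 by -0.38 ± 0.08, and these 4 kept the call in all 21 alternatives. SLC71A1 differed by 0.20 ± 0.059 (limma adjusted p = 0.0365), and 9 of 21 alternatives lost that call, with adjusted p up to 0.16. These were the fits without the intensity trend, with median centring, without A431 DMSO replicate 1 or 3, without A431 everolimus replicate 2, without each of the 3 HSC-1 DMSO replicates and without HSC-1 everolimus replicate 1.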

How the results depend on the processing

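The log2 difference of SLC38A12 was below 0 in all 5 comparisons under every alternative run. Many alternatives could not move it, such as leaving out an array outside the comparison or averaging probe sets of a gene with 1. The replicate block, the other filters, no trend, the robust prior and the 6 arrays alone also left the difference itself unchanged. In the comparisons of 2 groups, which did not overlap, leaving out an array could not change its sign. The shared sign is therefore no measure of stability. In HSC-1 the everolimus call, 1 member past the threshold, went to 0 members without the intensity trend and with the 6 arrays alone (both at -0.16). It went to 0 or stayed at 1 when single arrays were left out, where the difference ran from -0.19 to -0.14. In A431 the difference was -0.09 to -0.05 (limma adjusted p 0.386 to 0.778) over 22 alternatives, with 0 members past the threshold. The differences between the lines in DMSO and in everolimus and between their effects kept their side of the threshold throughout, at -0.10 to -0.04, -0.20 to -0.13 and -0.12 to -0.06. No pairing by replicate number was seen: 0 of 18 same-numbered pairs had deviations correlated over 0.1 (-0.15 to 0.07). With 3 arrays per group this cannot settle whether same-numbered arrays were handled together. With the replicate block the HSC-1 difference stayed at -0.16 (limma adjusted p = 0.0472), no call of SLC38A12 changed, and the count of genes called went to 1845 in HSC-1 and 621 in A431. Of 1308 list counts under alternatives, 130 moved by over 1.5 times. Those printed for everolimus that went to 0 under some alternatives were, in A431, the falls of other SLC genes (from 2), of partners and regulators (from 1) and of glutamine, glutamate and glutathione enzymes (from 3), and, in HSC-1, the falls of amino acid sensing genes (from 1), of other amino acid carriers (from 1) and of partners and regulators (from 2).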
